A study of Mus musculus with 4 samples.

Results

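Cells make NADPH, the electron carrier that reduces glutathione and thioredoxin and drives fatty acid and sterol synthesis, mainly in the cytosol. The oxidative branch of the pentose phosphate pathway makes it from glucose 6-phosphate, and the non-oxidative branch returns the resulting pentose phosphates to glycolysis. Cytosolic malic enzyme and cytosolic isocitrate dehydrogenase make it from malate and isocitrate. In the mammary gland this supply is best known for feeding milk fat synthesis. The 6 enzymes described here were chosen by symbol among the 54446 genes of the expression table, with earlier results of these data known. G6pdx (glucose-6-phosphate dehydrogenase) and Pgd (6-phosphogluconate dehydrogenase) catalyse the NADPH-yielding steps of the oxidative branch. Taldo1 (transaldolase) and Tkt (transketolase) form the non-oxidative branch. Me1 is the cytosolic malic enzyme, and Idh1 the cytosolic isocitrate dehydrogenase. All 6 were found and had a value above 0 in every library.

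The RNA came from mammary epithelial cells of wild-type C57BL/6 mice, sorted as basal cells, the outer contractile layer of the duct, or as luminal cells, which line it, and then grown in 3D culture. Each kind was given DMSO, the control, or 100 μM baicalin, a flavonoid glucuronide from Scutellaria roots. Per the study's methods, basal cells were gated as lineage-negative, CD24+ and high in CD29 and luminal cells as low in CD29, and the Matrigel cultures were fed a medium with EGF and insulin-transferrin-selenium to which DMSO or baicalin had been added. The labels give neither the age of the mice, nor the treatment time, nor how many animals were pooled. There was 1 library in each of the 4 groups, so no spread between replicates could be measured, and no difference between conditions was tested.

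Levels are in FPKM, a fragment count per kilobase of exon, divided by the depth of the library. The 4 libraries held 19356106 to 20648786 counted fragments, recovered from the steps between FPKM values of low genes, and 1354 to 13100 fragments lay behind each value of the 6 enzymes. Intervals in brackets are exact 95% intervals from these fragments. They cover counting error only, not the variation between cultures or animals. The markers of the 2 cell types went against the labels. All 10 basal markers were higher in the library labelled luminal under DMSO and again under baicalin, and their summed level was 1776 FPKM in the library labelled basal with DMSO, 480 with baicalin, 5376 in the library labelled luminal with DMSO and 7192 with baicalin. Of 14 luminal markers, 12 were higher in the library labelled basal in both treatments, with summed levels of 4616, 3260, 1458 and 1304 FPKM in the same order. The libraries are therefore called by their labels throughout, and every difference between labels rests on labels that these markers contradict. The study's methods state that the purity of the sorted cells was checked, and whether labels were exchanged was not tested.

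As 5 of the 6 enzymes were higher with baicalin in both labels, their promoters were searched for the core of the antioxidant response element, TGACNNNGC, the sequence bound by the stress regulator NRF2 with small MAF partners. RefSeq (GRCm38.p6) gave 9 windows for the 6 genes, each from 250 bases before to 50 bases after an annotated start. The core was found on either strand in 3 windows, those of Me1, G6pdx and Pgd, against 12.4% of all 32851 windows of this length. The 3 stretches are shown with 10 bases on each side and the core in capitals. They lie at chr9:86695902-86695930 for Me1, chrX:74428919-74428947 for G6pdx and chr4:149166061-149166089 for Pgd, all on the minus strand, and are written in the direction of transcription.
Me1: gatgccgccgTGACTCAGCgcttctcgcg
G6pdx: aggcgggtcaGCTCAGTCAaagcacacgc
Pgd: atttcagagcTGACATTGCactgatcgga
In Me1 the core begins 6 bases before the start, in exon sequence that GENCODE annotates as untranslated. It reads TGACTCAGC, a form that only 0.454% of all windows hold. It also overlaps the AP-1-type sequence TGANTCA, found in 7.81% of all windows on either strand. In G6pdx the core lies on the opposite strand, as TGACTGAGC, 57 bases before the start, in untranslated exon sequence of a longer transcript. In Pgd it lies in coding sequence, 3 bases after a second, downstream start, and the window at the first start of Pgd held none. Taldo1, the enzyme with the largest change, is shown for contrast with its upstream window at chr7:141391910-141392189, on the plus strand and without capitals, since its letters do not contain the core.
Taldo1: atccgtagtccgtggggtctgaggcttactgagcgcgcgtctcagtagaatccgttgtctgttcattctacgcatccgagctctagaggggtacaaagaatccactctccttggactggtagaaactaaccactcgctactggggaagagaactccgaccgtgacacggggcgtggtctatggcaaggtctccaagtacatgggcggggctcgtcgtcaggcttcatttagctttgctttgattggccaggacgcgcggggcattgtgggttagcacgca
The windows of Tkt and Idh1 and the second window of Me1 did not hold it either. A match is a description of letters, and binding was not measured.

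G6pdx (ENSMUSG00000031400, chromosome X, 74409483 to 74429194, minus strand, GRCm38) encodes the enzyme that commits glucose 6-phosphate to the pathway and makes its first NADPH. Its level was 56.8 FPKM in the library labelled basal with DMSO, 73.2 with baicalin, 56.5 in the library labelled luminal with DMSO and 79.6 with baicalin. On FPKM as deposited, the DMSO libraries were at the same level within counting error, and both baicalin libraries lay above them. The FPKM ratio of baicalin to DMSO was 1.29 [1.23 to 1.35] in the basal label and 1.41 [1.35 to 1.47] in the luminal label. On the scale used for all genes, log2((FPKM + 1)/(FPKM + 1)), these are changes of 0.36 and 0.49. Of all genes tested, 15.7% had a larger rise in the basal label and 8.33% in the luminal label. On the opposite strand, Ikbkg shares 418 bases with the exons of G6pdx, which is 13.6% of them, and although the libraries were made with a stranded kit, the sources used here do not say whether fragments were counted by strand. Ikbkg itself was at 8.61, 17.1, 8.73 and 10.2 FPKM in the same order of libraries.

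Pgd (ENSMUSG00000028961, chromosome 4, 149149991 to 149166771, minus strand) encodes the enzyme of the second NADPH-yielding step, which releases carbon dioxide and leaves ribulose 5-phosphate. It was at 60.2 FPKM in the library labelled basal with DMSO and 96.0 with baicalin, and at 52.8 and 98.4 FPKM in those labelled luminal. The baicalin libraries were close to each other and well above both controls. The ratio was 1.60 [1.55 to 1.64] in the basal label and 1.86 [1.81 to 1.92] in the luminal label, or 0.67 and 0.88 on the log2 scale. The change in the luminal label was the largest of the 6 enzymes there and was exceeded by 3.15% of all genes, against 5.68% in the basal label. Within a library, Pgd stood at 1.06 times the FPKM of G6pdx in the basal label with DMSO and at 1.31 times with baicalin. In the luminal label this ratio was 0.935 with DMSO and 1.24 with baicalin, so the second enzyme of the branch gained on the first in both labels.

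Taldo1 (ENSMUSG00000025503, chromosome 7, 141392199 to 141402968, plus strand) moves a 3-carbon unit between sugar phosphates in the non-oxidative branch. It was at 74.6 FPKM in the library labelled basal with DMSO, 188 with baicalin, 74.9 in the library labelled luminal with DMSO and 129.6 with baicalin. On FPKM as deposited, the control libraries were at the same level within counting error, and the baicalin libraries stood above them at unequal levels. The ratio was 2.52 [2.42 to 2.63] in the basal label and 1.73 [1.66 to 1.81] in the luminal label. On the log2 scale these are 1.32 and 0.78, and the first is the single value of the 6 enzymes past a change of 1. The study's methods used this size of change together with a t-test, which 1 library per group does not allow, and name no pseudocount. In the basal label 168 genes, or 0.945% of those tested, had a larger rise, and in the luminal label 3.91% did.

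Tkt (ENSMUSG00000021957, chromosome 14, 30548359 to 30574720, plus strand) encodes the partner of transaldolase, a thiamine-dependent enzyme that moves 2-carbon units. Its levels were 58.1 FPKM in the library labelled basal with DMSO, 64.4 with baicalin, 62.8 in the library labelled luminal with DMSO and 72.8 with baicalin. These are the narrowest differences among the enzymes that were higher with baicalin. The ratio was 1.11 [1.08 to 1.14] in the basal label and 1.16 [1.13 to 1.19] in the luminal label, or 0.15 and 0.21 on the log2 scale. A larger rise was seen for 32.0% of all genes in the basal label and 20.5% in the luminal label. The 2 enzymes of the non-oxidative branch thus parted. Taldo1 stood at 1.28 times the FPKM of Tkt in the basal label with DMSO and at 2.92 times with baicalin, and at 1.19 and 1.78 times in the luminal label.

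Me1 (ENSMUSG00000032418, chromosome 9, 86581371 to 86695953, minus strand) encodes the enzyme that turns cytosolic malate into pyruvate and NADPH. It had the lowest level of the 6 enzymes in every library, with 26.0 FPKM in the library labelled basal with DMSO, 43.6 with baicalin, 18.2 in the library labelled luminal with DMSO and 27.5 with baicalin. The luminal label with baicalin was close to the basal label without it. The ratio of baicalin to DMSO was 1.68 [1.59 to 1.77] in the basal label and 1.52 [1.42 to 1.62] in the luminal label, or 0.72 and 0.57 on the log2 scale, with a larger rise in 4.83% and 6.50% of all genes. Me1 has 3 near-identical copies in the annotation. The most expressed of them, Gm7049, is 98.4% identical over 1716 bases and was at 0.118, 0.144, 0.0905 and 0.368 FPKM in the same order, far below Me1.

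Idh1 (ENSMUSG00000025950, chromosome 1, 65158616 to 65186500, minus strand) encodes the enzyme that oxidises isocitrate in the cytosol. It was the exception among the 6. Its level was 60.2 FPKM in the library labelled basal with DMSO and 46.0 with baicalin, and 78.3 and 76.2 FPKM in those labelled luminal. The ratio was 0.763 [0.724 to 0.803] in the basal label, a change of -0.38 on the log2 scale, and 13.5% of all genes had a larger fall. The ratio in the luminal label was 0.974 [0.933 to 1.02], or -0.04 on the log2 scale, which is within counting error. Relative to G6pdx, Idh1 went from 1.06 to 0.628 times its FPKM in the basal label and from 1.38 to 0.958 times in the luminal label.

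**Figure D1:**
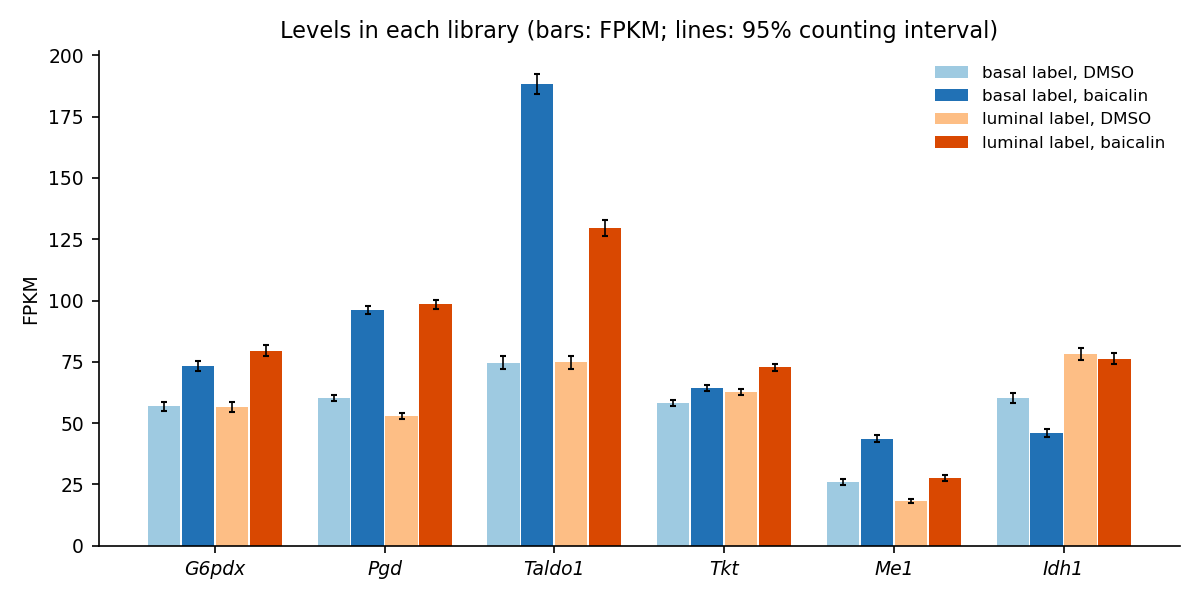
FPKM of each enzyme (vertical axis) in the 4 libraries, 1 bar per library, with exact 95% Poisson intervals as black lines, which cover counting error only. Taldo1 reaches 188 FPKM in the library labelled basal with baicalin, and Idh1 at 46.0 FPKM is below its control there.

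The plot of levels by library shows that the order of the enzymes differed between libraries, in part within counting error. Compared per length, Taldo1 was highest in 3 libraries, and Idh1 at 78.3 FPKM [75.9 to 80.7] stood above Taldo1 at 74.9 FPKM [72.3 to 77.5] in the library labelled luminal with DMSO, with overlapping intervals. In the basal label with DMSO, Idh1, Pgd, Tkt and G6pdx followed Taldo1 within 56.8 to 60.2 FPKM, and each overlapped its neighbour in counting error. With baicalin the same label had a spread order, with Taldo1, Pgd, G6pdx and Tkt apart from each other and Idh1 at 46.0 FPKM [44.2 to 47.8] overlapping Me1 at 43.6 FPKM [42.1 to 45.1]. In the luminal label with DMSO, Tkt, G6pdx, Pgd and Me1 followed Idh1 and Taldo1, each apart from the next. With baicalin, Taldo1 and Pgd led, followed by G6pdx, Idh1 and Tkt within 72.8 to 79.6 FPKM, each overlapping the next. The ratio of the highest to the lowest enzyme was 2.87, 4.32, 4.31 and 4.70 in the order of libraries used above. The summed level of the 6 was 336 FPKM in the basal label with DMSO and 511 with baicalin, and 343 and 484 FPKM in the luminal label, or 0.122%, 0.182%, 0.116% and 0.164% of all FPKM of each library.

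As a group, 5 of the 6 enzymes were higher with baicalin and 1 lower in each label. In the basal label 1 of the 6, Taldo1, exceeded a log2 change of 1, against 2.15% of the 17787 genes tested, those detected in each of the 4 libraries, and 0 were lower by more than 1, against 3.33%. In the luminal label 0 were past the threshold in either direction, against 2.37% of genes higher and 1.59% lower. The median change of the 6 was 0.51 in the basal label and 0.53 in the luminal label, beside medians over all genes of 0.01 and -0.02. The counting interval of the ratio lay above 1 for 5 enzymes in the basal label, against 28.1% of genes, and below 1 for Idh1, against 26.3%. For the luminal label it lay above 1 for 5 enzymes, against 22.9% of genes, and below 1 for 0, against 28.7%. Counting intervals this narrow are passed by about as many genes as not, so they say nothing on how the change would vary between cultures. In bulk RNA such as this, fewer cells of a type and less RNA per cell cannot be told apart.

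**Figure D2:**
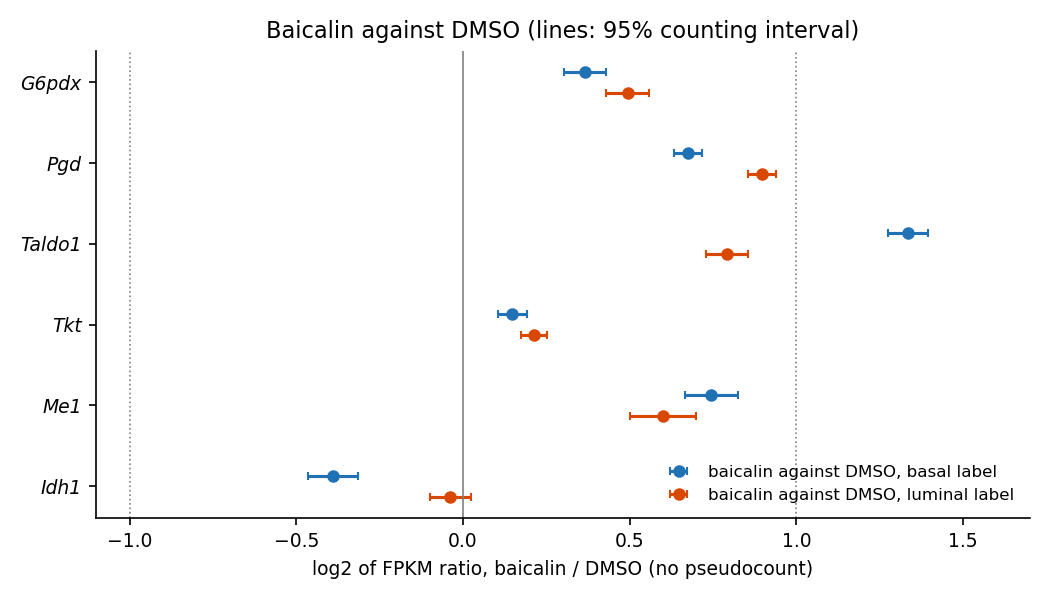
Log2 of the FPKM ratio of baicalin to DMSO, without a pseudocount (horizontal axis), for each enzyme in the basal label (blue) and the luminal label (orange), with exact 95% counting intervals and dotted lines at a log2 ratio of 1 in either direction. Taldo1 at a ratio of 2.52 in the basal label is the highest, and Idh1 at 0.763 in the same label is the lowest.

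On FPKM as deposited, the ratios by label also differed between labels beyond counting error for each enzyme, as the plot of ratios shows. Dividing the baicalin ratio of the basal label by that of the luminal label gave 1.46 [1.37 to 1.55] for Taldo1 and 1.11 [1.01 to 1.21] for Me1, whose changes were larger in the basal label. It gave 0.915 [0.860 to 0.974] for G6pdx, 0.857 [0.822 to 0.893] for Pgd and 0.956 [0.918 to 0.996] for Tkt, whose changes were larger in the luminal label. For Idh1 it was 0.784 [0.733 to 0.838], since the lower level with baicalin was in the basal label. The median difference of the log2 changes, luminal minus basal, was 0.10. The interval of Me1 comes close to 1, and its difference between labels depends on scaling. With each library rescaled to the same total, the log2 changes of Me1 were 0.70 in the basal label and 0.60 in the luminal label. As deposited they were 0.72 and 0.57. Intervals were not computed on the rescaled values. With 1 library per group, a difference between labels cannot be told apart from a difference between cultures.

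**Figure D3:**
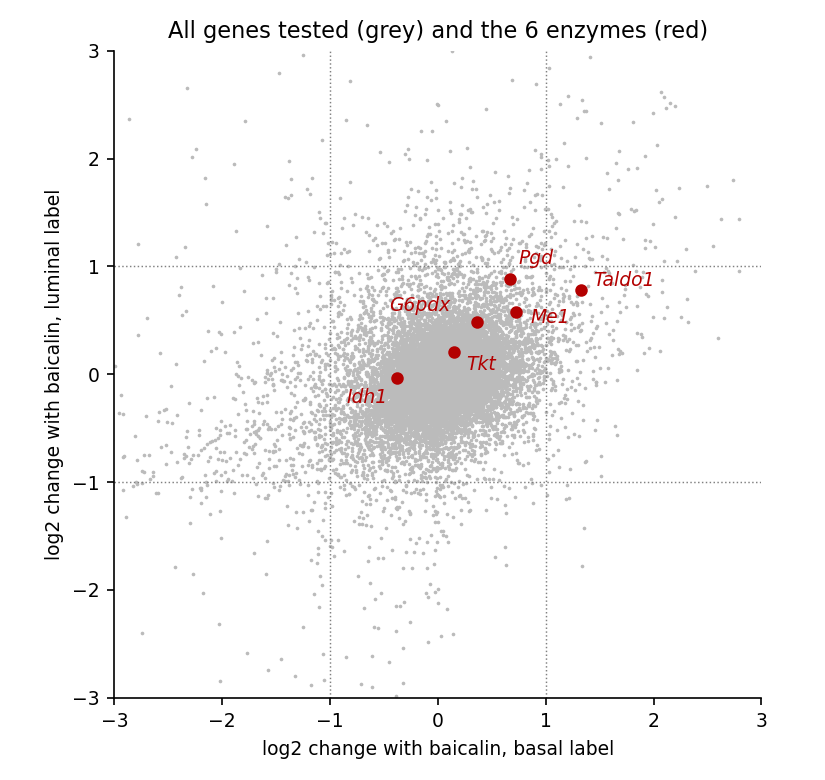
Log2 change with baicalin in the basal label (horizontal axis) and in the luminal label (vertical axis) for the genes tested (grey) and the 6 enzymes (red), with dotted lines at a change of 1 in either direction. 29 of 17787 genes lie outside the axes, and Taldo1 is the enzyme past the line, at 1.32 in the basal label.

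In the scatter of all genes, Pgd, Taldo1, Me1 and G6pdx lie to the upper right of the centre of the cloud, Tkt closer to the centre, and Idh1 to the left of it. The labels were also compared within a treatment. These comparisons use the same 4 libraries as those above. Under DMSO, G6pdx and Taldo1 were at the same level in both labels within counting error, with luminal over basal ratios of 0.995 [0.949 to 1.04] and 1.003 [0.955 to 1.05]. Me1 was lower in the luminal label, at 0.699 [0.652 to 0.749] times the basal level, and Pgd at 0.879 [0.850 to 0.908] times. Idh1 was higher there, at 1.30 [1.24 to 1.36] times, and Tkt at 1.08 [1.05 to 1.11] times. Under baicalin the ratio was 1.66 [1.58 to 1.74] for Idh1, 0.689 [0.666 to 0.712] for Taldo1 and 0.632 [0.599 to 0.667] for Me1, and the other enzymes lay between 1.03 for Pgd and 1.13 for Tkt. None of the 6 was past a log2 change of 1 between labels in either treatment, against 4.71% of genes higher and 3.86% lower in the luminal label under DMSO, and 5.24% higher and 2.99% lower under baicalin. Rescaled to TPM, in which each library sums to the same total, Taldo1 turned from 0.00 to -0.10 on the log2 scale under DMSO and Pgd from 0.04 to -0.03 under baicalin. Under DMSO, G6pdx moved from -0.01 to -0.11 and Tkt from 0.11 to 0.00 on that scale. The equal levels of G6pdx and Taldo1 and the higher Tkt in the luminal label thus depend on scaling.

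Of 15 other enzymes of the pentose phosphate pathway, 12 were above 0 in all libraries, and with baicalin 7 were higher and 5 lower in the basal label (median 0.08), with 6 higher and 6 lower in the luminal label (median 0.00). None was past the threshold. Pgls, which hydrolyses the lactone between the G6pdx and Pgd steps, was at 7.88 FPKM in the basal label with DMSO, 11.5 with baicalin, 10.6 in the luminal label with DMSO and 10.2 with baicalin. Its level was thus a small fraction of that of its neighbours, with Pgd at 7.63, 8.34, 4.98 and 9.64 times Pgls. H6pd, the form of the first enzyme in the endoplasmic reticulum, was at 10.8, 7.71, 5.52 and 5.63 FPKM in the same order, and lower with baicalin in the basal label (-0.44) where G6pdx was higher. Rpe, the epimerase that feeds Tkt, changed by 0.15 and 0.02, and Rpia, the isomerase, by 0.40 and -0.01, but 25 genes share long stretches with Rpia and its level is uncertain. Shpk, sedoheptulokinase, which phosphorylates a sugar of the non-oxidative branch, was at 0.827, 1.59, 1.83 and 1.69 FPKM, a change of 0.50 and -0.08. Shpk, Pgls and Rpia in the basal label, and Pgm2 in the luminal label, thus had larger rises than G6pdx and Tkt there. H6pd in the basal label fell by more than G6pdx or Tkt rose. In that label Shpk rested on 49 fragments with DMSO and 96 with baicalin. The entry listed as Pgm2 changed by 0.26 and 0.53, and GENCODE names this gene Pgm1. Tigar, a phosphatase that diverts glycolytic carbon towards the pathway, changed by 0.01 and 0.45. Tktl1 and Tktl2, the relatives of Tkt, were listed at 0 in all libraries, and G6pd2, the autosomal copy of G6pdx, was at 0 except for 1 fragment in the luminal label with DMSO.

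Other enzymes listed under NADPH supply were split. Not all of them mainly make NADPH, and Me2 and Nadk, described below, are only examples. A change of Mthfd2 or of another entry is thus not taken here as a change of NADPH supply. Of 12 listed, 5 of the 12 gene entries above 0 in all libraries were higher and 7 lower in the basal label, 2 and 1 of them past the threshold (median -0.09), and 6 were higher and 6 lower in the luminal label, 1 of them past it and higher (median -0.01). The entries past it were mitochondrial and cytosolic folate enzymes. Mthfd2, of mitochondrial one-carbon metabolism, was at 12.6 FPKM in the basal label with DMSO, 29.4 with baicalin, 6.93 in the luminal label with DMSO and 25.4 with baicalin, or 1.16 and 1.74 on the log2 scale. Aldh1l2, which makes NADPH in mitochondria from formyl-tetrahydrofolate, was at 1.44, 13.8, 10.8 and 13.9 FPKM, or 2.60 and 0.34. Aldh1l1, its cytosolic relative, was at 2.72, 0.611, 5.03 and 8.06 FPKM, or -1.21 and 0.59. Of these, Aldh1l1 had opposite directions in the labels.

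The mitochondrial isozymes of Me1 and Idh1 gave a contrast within each library. Me2, the mitochondrial malic enzyme, which makes mainly NADH, was at 13.5 FPKM in the basal label with DMSO, 8.52 with baicalin, 9.95 in the luminal label with DMSO and 10.1 with baicalin. Me1 therefore stood at 1.93 times Me2 in the basal label with DMSO and at 5.12 times with baicalin, and at 1.83 and 2.74 times in the luminal label. Idh2, the mitochondrial NADP-linked isocitrate dehydrogenase, was at 44.1, 38.6, 36.5 and 24.5 FPKM. Idh1 stood at 1.37 and 1.19 times Idh2 in the basal label and at 2.15 and 3.11 times in the luminal label, so their balance moved in opposite directions in the 2 labels. Me3, the other mitochondrial form, stayed under 1 FPKM in every library. Nadk, the kinase that makes NADP from NAD, was at 76.8, 71.6, 43.1 and 69.0 FPKM, a change of -0.10 in the basal label and 0.67 in the luminal label. Nnt, the mitochondrial transhydrogenase, has 2 overlapping entries with the same name, 1 at 0 in all libraries and the other at 0.133 FPKM or less, and its level is uncertain.

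**Figure D4:**
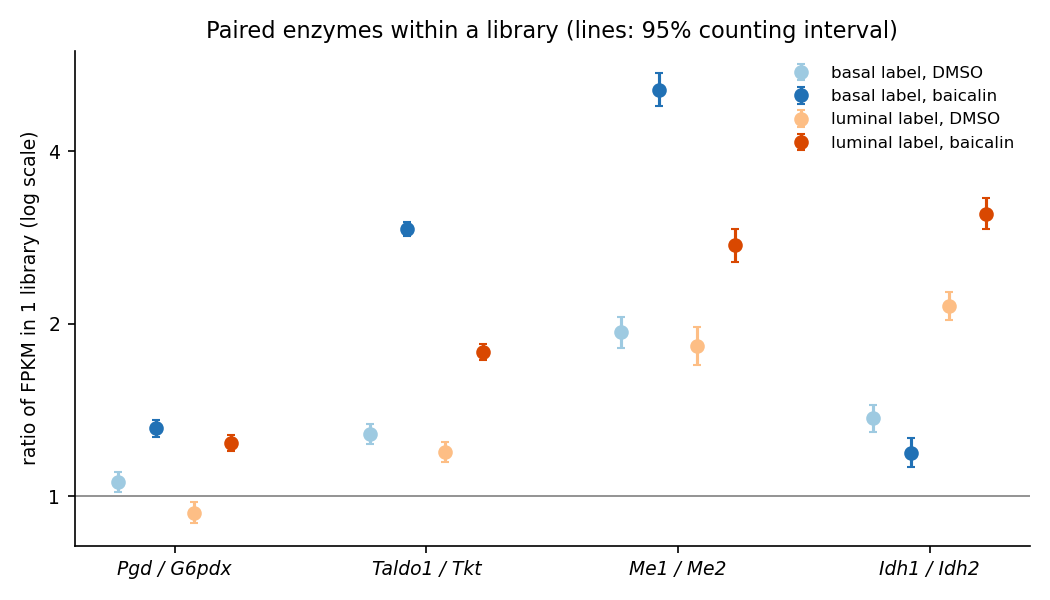
FPKM ratio of pairs of enzymes within each library (log axis), 1 point per library with exact 95% counting intervals. Taldo1 over Tkt goes from 1.28 to 2.92 and Me1 over Me2 from 1.93 to 5.12 in the basal label with baicalin.

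The plot of enzyme pairs gathers these ratios, which do not depend on how libraries are scaled against each other. On the side of NADPH use, 22 reductases and synthetic enzymes were measured. In the basal label 13 were higher and 9 lower with baicalin, 4 and 1 of them past the threshold (median 0.08). In the luminal label 19 were higher and 3 lower, 4 and 0 past it (median 0.47). Nqo1, the quinone reductase, was at 32.3 FPKM in the basal label with DMSO, 134.6 with baicalin, 143 in the luminal label with DMSO and 470 with baicalin. On FPKM as deposited, its control level in the luminal label was slightly above its baicalin level in the basal label. This order was not examined on rescaled values. Cbr3, a carbonyl reductase, was at 2.57, 31.8, 22.7 and 51.4 FPKM, and Hmox1, haem oxygenase, which draws electrons from NADPH through its reductase, at 29.7, 173, 46.9 and 160 FPKM. The reductases of the major thiol systems moved less. Txnrd1, thioredoxin reductase, changed by 0.85 and 0.44 on the log2 scale, and Gsr, glutathione reductase, by 0.05 and 0.87.

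NRF2 and its regulators and glutathione targets form a list of 10, of which 9 were higher and 1 lower with baicalin in each label, 4 past the threshold in the basal label (median 0.69) and 3 in the luminal label (median 0.39). Nfe2l2, which encodes NRF2, changed by 0.47 and 0.22, and Keap1, which targets it for degradation, by -0.08 and -0.01. Slc7a11, the cystine importer, was at 2.73 FPKM in the basal label with DMSO, 76.4 with baicalin, 2.27 in the luminal label with DMSO and 35.6 with baicalin. Sqstm1, a KEAP1-binding autophagy receptor, changed by 1.52 and 1.10, and Gclm, a subunit of glutathione synthesis, by 1.88 and 0.37, the latter with 15 genes that share long stretches with it.

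**Figure D5:**
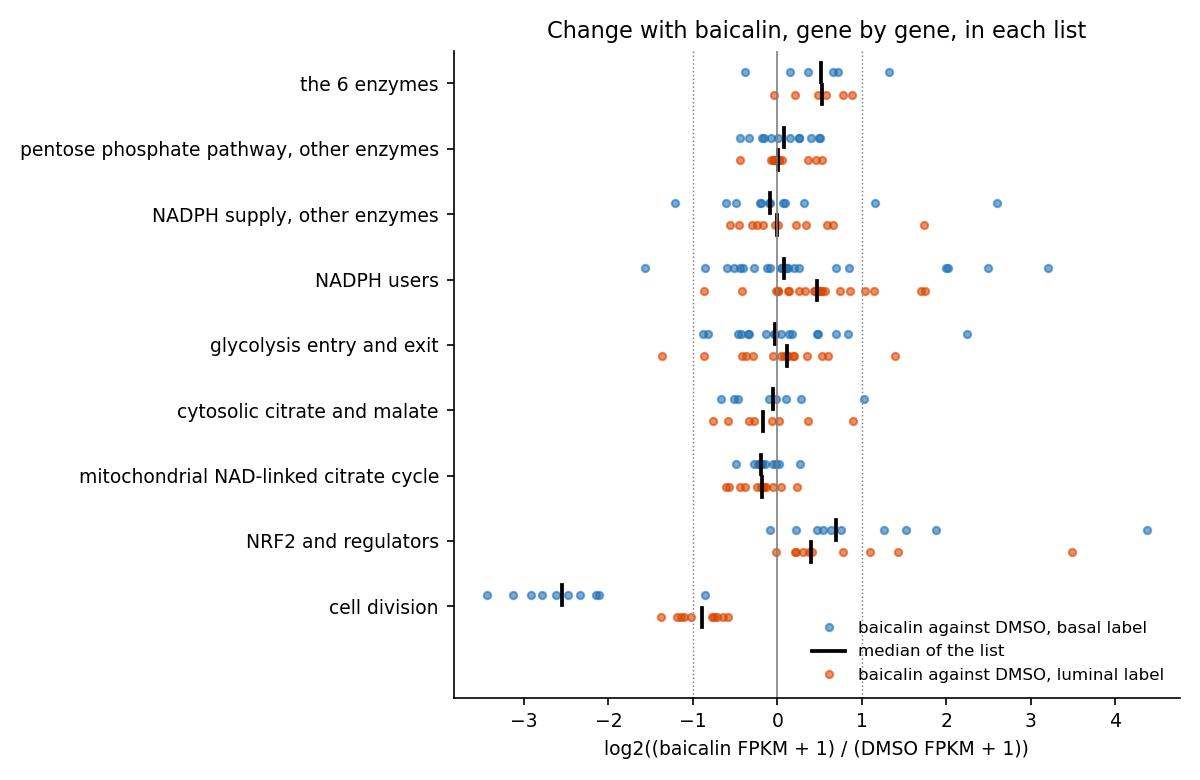
Log2 change with baicalin of each gene in 9 lists, basal label in blue and luminal label in orange, with a black bar at each list's median and dotted lines at a change of 1. The 6 enzymes have medians of 0.51 and 0.53, and the cell division genes of -2.55 and -0.90.

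The plot of lists sets the 6 enzymes beside neighbouring pathways. Glycolysis had 17 entries, with 8 higher and 9 lower in the basal label (median -0.03) and 11 higher and 6 lower in the luminal label (median 0.11). Hk2, a hexokinase, which makes glucose 6-phosphate, changed by 0.69 and 1.39. It was at 10.01 FPKM in the basal label with DMSO, 16.8 with baicalin, 4.22 in the luminal label with DMSO and 12.7 with baicalin. Hk1, another listed hexokinase, stood above Hk2 in every library, at 39.0, 35.3, 23.7 and 27.1 FPKM in the same order. Its change was -0.14 and 0.19. Aldoc, an aldolase, changed by -0.03 and -1.37, and Gapdh by 2.25 and 0.53, but 78 genes share long near-identical stretches with Gapdh and its level is uncertain. The enzymes and carriers listed under cytosolic citrate and malate had 3 of 8 higher in each label, with medians of -0.05 and -0.17. Not all of them supply Idh1 or Me1. Among them Got1, the cytosolic aspartate aminotransferase, changed by 1.03 and 0.89, Slc25a10, a dicarboxylate carrier, by -0.66 and -0.76, and Mdh1, which interconverts malate and oxaloacetate, by -0.10 and -0.58. In the mitochondrial citrate cycle 10 of 12 enzymes were lower in each label, with medians of -0.19 and -0.18 and 0 past the threshold. Idh3a, Idh3g and Fh1 had the largest changes there over both labels, between -0.20 and -0.49 in the basal label and between -0.38 and -0.60 in the luminal label.

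Cell division genes moved with the treatment. All 10 were lower with baicalin in both labels, 9 past the threshold in the basal label (median -2.55) and 5 in the luminal label (median -0.90). Mki67, the proliferation antigen, was at 54.0 FPKM in the basal label with DMSO, 4.06 with baicalin, 68.6 in the luminal label with DMSO and 25.9 with baicalin. Ccna2 changed by -3.13 and -1.19 and Plk1 by -2.91 and -0.75. Their part in the changes of the 6 enzymes was not tested. The summed level of 8 adipocyte markers, a cell type with much Me1, was 0.604 FPKM in the basal label with DMSO, 1.55 with baicalin, 17.5 in the luminal label with DMSO and 5.99 with baicalin, and Fabp4 made up 9.81 FPKM of the third of these sums. Immune markers summed to 16.7, 53.7, 5.45 and 16.4 FPKM. The second of these sums was mostly Cd68, a lysosomal protein, which was at 7.49, 51.5, 4.44 and 13.7 FPKM, while Lyz2 was at 8.84 FPKM in the basal label with DMSO and 2.17 with baicalin, and Ptprc, the pan-leukocyte marker, was at 0.0138 FPKM or less in every library. Fibroblast markers summed to 7.40, 3.13, 11.3 and 9.88 FPKM. In the luminal label 7 of these 8 were higher with baicalin, and the lower sum came from Pdgfra, at 6.30 FPKM with DMSO and 1.67 with baicalin. Endothelial markers summed to 0.901, 1.33, 1.79 and 3.57 FPKM, and the part of these cell types in the changes was not tested. Of the markers, 5 adipocyte, 6 immune, 2 fibroblast and 4 endothelial genes were under 1 FPKM in all libraries.

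Genes with a pattern like the 6 were sought by the Euclidean distance between log2(FPKM + 1) profiles over the 4 libraries, centred per gene, among 8570 protein-coding genes with at least 5 FPKM in a library. Nearest to the mean of the 6 were Tmbim1 (distance 0.0261), Uqcrq (0.0448), Zfp984 (0.0458), Arsa (0.0518) and Epha1 (0.0719). Taldo1 was nearest to Scpep1 (0.127), Slc1a4 (0.148), Gstp1 (0.164), Fam241b and Gpt2 (0.180). Among the nearest to Pgd were Map3k8 (0.0731), Slc7a1 (0.0878), Klf9 and Fitm2 (0.158), and to G6pdx Mfsd5 (0.0575), Fam213b, Zbtb17 and Derl1. Among the nearest to Tkt were Arfgap3 (0.0190), Vps13c, Arpc2 and Mcm3ap. Me1 was nearest to Hspa9 (0.0474), Gfpt1 (0.0578), Ubap1, Rubcn and Nuak2, and Idh1 to Tceal8 (0.0387), Agfg2, Cyb5r3 (0.0649), Sh3kbp1 and mt-Co1 (0.0730). Within the 6, G6pdx and Tkt were closest (0.262), followed by G6pdx and Pgd (0.378) and by Pgd and Taldo1 (0.508). Taldo1 and Idh1 were farthest apart (1.56). With 4 libraries many genes reach short distances, so this is a description only.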

How the data were processed

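mRNA was sequenced from 4 libraries, 1 each for cells labelled basal or luminal given DMSO or 100 μM baicalin. Per the study's methods, the authors aligned reads with HISAT2 to GRCm38, counted fragments with featureCounts on Ensembl release 94, and deposited FPKM. The submitters' processing notes name Bowtie 0.12.2 and the builds mm8 and GRCm38, with no role given. Which pipeline made the deposited values, and its strand setting, could not be settled here. Genes, positions and exon lengths are from GENCODE mouse release 21 on GRCm38, for 54409 of 54446 genes.

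Products of FPKM and exon length were multiples of 1 fragment: 99.3% to 99.5% of low values and all 24 values of the 6 enzymes were whole within 0.1 fragment. These fragments gave exact Clopper-Pearson, Poisson and conditional 95% intervals, for counting error only. No count test was run, since each group has 1 library. Changes are log2((FPKM + 1)/(FPKM + 1)), which understates low genes, over the 17787 genes above 0 in all 4 libraries. A change past 1 was called. Near-identical genes share at least 95% identity over at least 200 bases of transcript by blastn. The computation was tested on simulated data.

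The 6 enzymes, the 8 pathway lists and the 6 marker lists were chosen with earlier results of these data known. Genes named are the 6 enzymes, their direct partners and isozymes, up to 3 genes per list with the largest change, and up to 5 nearest profiles, of which some are not reported here. The named partners of a list are not all given here. Hk1 is named in addition, beside Hk2. Alternatives were a pseudocount of 0.1 or none, a threshold of 2, TPM, centring on the median ratio, and other filters on low FPKM. The work was done in Python 3.11.15 with scipy 1.17.1, pandas 2.3.3, numpy 2.4.6 and, for plots, matplotlib 3.10.9. The E2 + PG samples, RT-qPCR and sorting data of the study were not analysed here.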

Additional observations from a re-analysis of the deposited data

Results flagged for a closer look

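With baicalin, 2 genes around the 6 enzymes moved in opposite directions in the labels. Aldh1l1 changed by -1.21 on the log2 scale in the basal label and by 0.59 in the luminal label. Nadk changed by -0.10 in the basal label and by 0.67 in the luminal label. Each direction rests on 1 library per group, and the difference between labels was not tested.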

How the results depend on the processing

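No paired analysis was possible because each group has 1 library and the labels give no replicate numbers, and for the same reason no library could be left out. With a threshold of 2, 0 of the 6 enzymes were higher in the basal label, in place of 1. The changes of the 6 enzymes with baicalin moved by less than their counting intervals under each of the other pseudocounts, TPM and centring. Under TPM the median of the 6 moved from -0.0010 to -0.1088 between labels under DMSO, and from 0.0774 to 0.0088 under baicalin. The share of all genes past the threshold depended most on low genes. With baicalin in the basal label it was 5.48%, and 13.6% with a pseudocount of 0.1, 21.1% with none, 9.55% with TPM and 8.23% among genes of at least 5 FPKM. In the luminal label it was 3.95%, and 11%, 17.4%, 7.29% and 6.06%. Between labels under DMSO it was 8.56%, and 19.6%, 27% and 14.5% with the first 3 of these. Under baicalin it was 8.23%, and 18.9%, 26.1% and 14.2%. The depth of each library leaves a narrow counting error for the 6 enzymes, and the variation between cultures was not measured.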
